A study of Homo sapiens with 16 samples.

Results

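The genes described here are 10 human genes that carry or answer FOXO signalling in fasting, stress or quiescence: the factors FOXO1 and FOXO3, and PDK4, CREBRF, IRS2, KLF9, SESN3, BCL6, TXNIP and PIK3IP1. They were picked by symbol with earlier results of these libraries known, and the symbols were matched to Ensembl gene IDs, giving 10 of the 63677 IDs counted. Of the 10, 9 had reads and all 9 were among the 20280 genes that passed the filter on low counts. RNA came from 2 human melanoma lines, the parental UACC62P and its vemurafenib-resistant derivative UACC62R, which had been selected for 2 months in 2 uM of vemurafenib, a BRAF inhibitor, and was then kept in it. Each line was sampled without CCG-222740 (0 h, called before treatment below) and after 2, 6 and 24 h in 10 uM of it. The submitters describe CCG-222740 as an inhibitor of gene activation by MRTF and SRF. Each of the 8 groups had 2 libraries. The culture text naming vemurafenib belongs to the 0 h libraries. Whether UACC62R also received it beside CCG-222740 was not given in the sources used here. Differences between the lines at 0 h thus cannot be told apart from vemurafenib in the UACC62R culture. If it was left out during CCG-222740, its withdrawal cannot be told apart from the changes over time in UACC62R. No group with vehicle alone for a matched time is labelled, so time in culture and compound cannot be told apart. The 0 h libraries are also numbered apart from the treated ones, with titles of another form. Culture plates of 6 cm are named for treated samples. Any difference of culture or handling between 0 h and treated libraries cannot be told apart from CCG-222740 either. Nothing in the labels says that the 2 libraries of a group came from separate cultures, so their spread may be technical.

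FOXO factors are transcription factors held in the cytoplasm when insulin or growth factor receptors signal through PI3K and AKT, and released to the nucleus when that signal falls. In the nucleus they switch on genes that slow growth, spare glucose and protect against stress, and several of those genes feed back on insulin signalling. Melanoma cells that resist BRAF inhibitors often keep receptor and PI3K signalling active, and FOXO factors lie downstream of it.

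Depth was 25.9 to 33.3 M reads in genes per library. One library went against its label. That labelled UACC62P 2 h replicate 1 looked like UACC62R: for 2928 of the 3128 genes that separate the lines at 0 h it lay nearer UACC62R, or 93.6%, against 0.543 to 4.83% in the other UACC62P libraries. Among markers of cell state, SOX10 stood at 18.1 in depth-scaled read counts (CPM) in it, against 741 to 919 in the other UACC62P libraries and 20.0 to 29.9 in UACC62R. AXL stood at 196, against 2.64 to 5.52 in UACC62P and 172 to 281 in UACC62R. The 7 melanocyte-lineage markers summed to 1500 to 1850 CPM in UACC62P and 73.2 to 83.6 in UACC62R, where 4 of them were under 1 CPM in every library. Summed markers of other cell types were low in both lines, with 0.256 to 1.11 CPM for blood, 0.657 to 4.74 for endothelium and 0.188 to 11.9 for epithelium, while the fibroblast list gave 25.9 to 31.3 in UACC62P and 45.8 to 68.4 in UACC62R. Results below use the 15 other libraries, which leaves 1 library for UACC62P at 2 h, and values with all 16 stand beside those they change. In the doubtful library SESN3 stood at 18.4 and IRS2 at 21.3 CPM, within the UACC62R range. FOXO1 at 22.0 and PDK4 at 14.7 also lay within it, but above every UACC62R library at 2 and 6 h. KLF9 at 39.6 and BCL6 at 24.5 lay outside the range of either line.

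A short forkhead sequence, the letters that FOXO factors are known to bind, was sought in the RefSeq promoter window of each gene (GRCh38.p14, 250 bases before to 50 after a start, both strands). GTAAACA was in 3.42% and ATAAACA in 4.24% of 35116 windows of this length, and either in 7.43%. The 10 genes had 16 windows, since some have several starts, and 5 of the 16, each of another gene, held one of them. The sites are shown because these letters are ones FOXO factors bind. Each is printed along the gene's own strand, with the match in capitals (TGTTTAT and TGTTTAC are the same letters on the other strand):
TXNIP, chr1:145996686-145996714, minus strand: tcgggctcctgGTAAACAaggaccgggca
PIK3IP1, chr22:31292455-31292483, minus strand: taaagagaggcTGTTTACcagaacagcat
CREBRF, chr5:173056373-173056401, plus strand: cccgtcaggaaggacATAAACAaaacaaa
KLF9, chr9:70414628-70414656, minus strand: ttactcatttgTGTTTATtcttggactta
FOXO3, chr6:108560672-108560700, plus strand: ccgagcgaaacATAAACAaacgcacgcac

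Counted from the first transcribed base, the match began at -124 in TXNIP, 17 in PIK3IP1, 37 in CREBRF, 13 in KLF9 and -234 in FOXO3. FOXO1, PDK4, IRS2, SESN3 and BCL6 had neither sequence in these windows. CACGTG, an E-box read by basic helix-loop-helix factors, was in 7.26% of windows, and among the 16 in that of CREBRF alone, where it occurred at -129 and -14. CCAAT was in 34.6% of all windows and in 6 of the 16. The matches describe these windows and were not tied to binding in these cells.

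The 250 bases before the start of the 4 genes that stood higher in UACC62R at 24 h than at 0 h (values below) are shown so that the windows can be set side by side. Capitals mark CACGTG and CCAAT, the latter read as ATTGG where it lies on the other strand:
CREBRF, chr5:173056102-173056351, plus strand: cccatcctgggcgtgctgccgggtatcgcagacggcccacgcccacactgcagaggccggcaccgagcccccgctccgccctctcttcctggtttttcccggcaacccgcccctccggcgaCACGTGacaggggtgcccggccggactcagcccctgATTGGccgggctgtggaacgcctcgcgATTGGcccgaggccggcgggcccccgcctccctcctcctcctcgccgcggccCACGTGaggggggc
PDK4, chr7:95596517-95596766, minus strand: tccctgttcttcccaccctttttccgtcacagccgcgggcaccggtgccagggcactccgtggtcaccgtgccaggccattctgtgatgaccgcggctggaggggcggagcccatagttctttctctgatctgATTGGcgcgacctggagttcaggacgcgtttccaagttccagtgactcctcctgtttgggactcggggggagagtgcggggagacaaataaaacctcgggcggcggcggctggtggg
SESN3, chr11:95232476-95232725, minus strand: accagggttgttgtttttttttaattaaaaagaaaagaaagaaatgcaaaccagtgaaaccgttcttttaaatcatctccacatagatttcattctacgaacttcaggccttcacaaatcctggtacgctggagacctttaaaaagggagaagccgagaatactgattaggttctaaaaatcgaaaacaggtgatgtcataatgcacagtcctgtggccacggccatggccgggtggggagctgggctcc
FOXO1, chr13:40666642-40666891, minus strand: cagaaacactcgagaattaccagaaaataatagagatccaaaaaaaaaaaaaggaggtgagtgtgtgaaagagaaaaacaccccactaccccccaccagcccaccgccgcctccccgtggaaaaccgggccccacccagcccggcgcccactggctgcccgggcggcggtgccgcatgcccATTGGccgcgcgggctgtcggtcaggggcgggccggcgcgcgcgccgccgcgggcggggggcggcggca

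SESN3 held none of the 4 sequences searched, PDK4 and FOXO1 held 1 CCAAT each, and CREBRF held both of its E-boxes and 2 CCAAT. So the 4 genes, alike in standing higher in UACC62R at 24 h, shared no single one of these sequences in the bases shown. Whether they are regulated alike was not tested.

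Values below are CPM scaled by TMM, listed as replicate 1 and then replicate 2. Fold changes are log2 values ± SE from a single edgeR quasi-likelihood fit of 15 libraries, and a gene is called when its p, adjusted by Benjamini and Hochberg's method across the 20280 genes tested, is under 0.05. Because the 10 genes were picked from these values, their calls are a description and carry no weight as a test.

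Of the factors, FOXO1 (ENSG00000150907), the best-known driver of the fasting programme, stood at 16.4 and 16.2 CPM in UACC62P before treatment, 12.7 after 2 h, 15 and 12.3 after 6 h, and 16.5 and 13.4 after 24 h. In UACC62R it stood at 15.4 and 16.6 before treatment, 13.9 and 14.8 after 2 h, 15.5 and 13.3 after 6 h, and 24.7 and 19.5 after 24 h. Only the UACC62R libraries at 24 h left the common range, both above every other library of the 15. The left-out library, labelled UACC62P 2 h replicate 1, held 22.0 CPM, above the UACC62R 24 h replicate 2. FOXO1 rose there by 0.47 ± 0.15 against 0 h and by 0.62 ± 0.15 against 6 h, while the same 24 h change in UACC62P was -0.13 ± 0.15. The call against 0 h was lost with all 16 libraries, with only the groups compared and without any 1 of 7 libraries, and without the UACC62R 24 h replicate 1 the value was 0.27. The call against 6 h was lost with all 16 libraries, with only the groups compared, and without the UACC62R 6 h replicate 2 or 24 h replicate 1. Levels of the lines at 0 h overlapped, with a difference of -0.03 ± 0.15.

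FOXO3 (ENSG00000118689), the second factor, stood at 19.4 and 20.0 CPM in UACC62P before treatment, 24.5 after 2 h, 20.9 and 21.5 after 6 h, and 22.4 and 20.7 after 24 h. UACC62R held 15.9 and 15.2, then 16.8 and 15.5, 20.0 and 17.1, and 17.3 and 12.8. At 0 h FOXO3 in UACC62R differed from UACC62P by -0.34 ± 0.13, a call that was lost with 2 other scalings (RLE and library size alone), with no filter, with DESeq2, with all 16 libraries and without any 1 of the 4 libraries compared. Its 24 h change was -0.05 ± 0.13 in UACC62R and 0.13 ± 0.13 in UACC62P. FOXO1 and FOXO3 have processed copies elsewhere in the genome (FOXO1B and FOXO3B), so their counts are uncertain. FOXO activity depends on phosphorylation and location, which these counts do not measure.

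**Figure D1:**
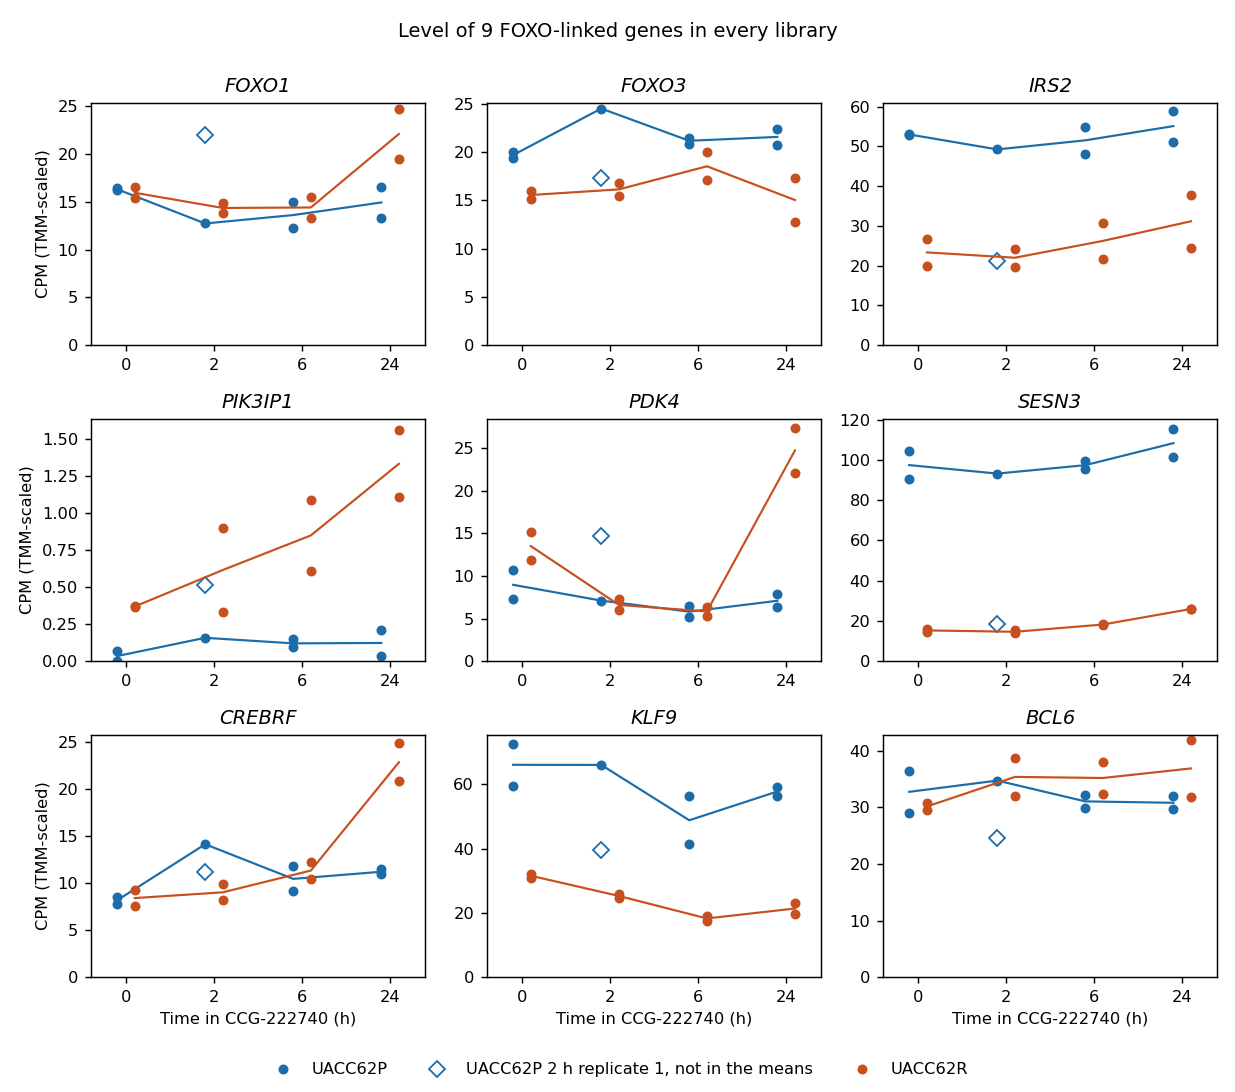
TMM-scaled CPM (vertical axis) of 9 genes by hours in 10 uM CCG-222740 (horizontal axis), one panel per gene; each point is a library, lines join group means, and the open diamond is the library labelled UACC62P 2 h replicate 1, which is in no mean. In UACC62R, PDK4 dips at 2 and 6 h and is highest at 24 h, CREBRF, SESN3 and FOXO1 are highest at 24 h, and the diamond lies with UACC62R for SESN3 and IRS2.

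PDK4 (ENSG00000004799), the kinase that switches off pyruvate dehydrogenase and so turns cells from glucose to fat, moved most over time. In UACC62R it stood at 11.9 and 15.1 CPM before treatment, 5.96 and 7.24 after 2 h, 6.34 and 5.31 after 6 h, and 27.3 and 22.1 after 24 h. The 4 libraries at 2 and 6 h were all below both 0 h libraries, and both 24 h libraries were above all others. The left-out library, labelled UACC62P 2 h replicate 1 but like UACC62R, held 14.7 CPM, within the 0 h range of UACC62R. Against 0 h, PDK4 differed by -1.03 ± 0.21 at 2 h (called with the replicate number as a block, with DESeq2 and with no filter, but not in the filtered edgeR fit without the block), fell by 1.21 ± 0.21 on the log2 scale at 6 h, a 2.31-fold lower level, and rose by 0.87 ± 0.20 at 24 h, a 1.83-fold higher level. From 6 to 24 h it rose by 2.08 ± 0.21, or 4.23-fold. The 6 h call was lost with all 16 libraries, without the UACC62R 0 h replicate 2 and without either 6 h replicate. The 24 h call against 0 h was lost with all 16 libraries, without the UACC62R 0 h replicate 1 (0.71) and without the 24 h replicate 1 (0.70).

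In UACC62P, PDK4 stood at 10.7 and 7.24 CPM before treatment, 7.10 after 2 h, 6.47 and 5.14 after 6 h, and 7.84 and 6.33 after 24 h. The 6 h libraries lay below the 0 h ones, and those at 24 h overlapped them. The changes were -0.34 ± 0.26 at 2 h, -0.62 ± 0.21 at 6 h and -0.34 ± 0.21 at 24 h, none of them called. At 0 h UACC62R was 1.51-fold above UACC62P (0.59 ± 0.20), a call lost with all 16 libraries, without the UACC62P 0 h replicate 2 (0.34) and without the UACC62R 0 h replicate 2 (0.41).

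CREBRF (ENSG00000164463), a regulator of the CREB3 family that also restrains glucocorticoid receptor signalling, had the largest 24 h change of the 8 members with over 5 CPM in every library. In UACC62R it stood at 9.26 and 7.54 CPM before treatment, 9.87 and 8.16 after 2 h, 10.4 and 12.2 after 6 h, and 24.9 and 20.8 after 24 h. The 24 h libraries were the 2 highest of the 15 and lay apart from the rest. CREBRF rose by 1.44 ± 0.16 at 24 h against 0 h, or 2.72-fold, and by 1.01 ± 0.16 from 6 to 24 h. The 24 h call was kept with all 16 libraries and with any 1 of the 15 left out.

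UACC62P gave CREBRF levels of 8.55 and 7.78 CPM before treatment, 14.1 in the single library after 2 h, 9.10 and 11.8 after 6 h, and 11.5 and 10.9 after 24 h. All 5 treated libraries were above both at 0 h. The changes were 0.79 ± 0.20, 0.35 ± 0.17 and 0.46 ± 0.17, with no call. The lines were level at 0 h, with a difference of 0.04 ± 0.17.

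SESN3 (ENSG00000149212), a sestrin that holds back mTORC1 when cells are short of nutrients, set the lines apart more than any other of the 8 members with over 5 CPM in every library. UACC62P held 104 and 90.4 CPM before treatment, 93.2 after 2 h, 99.5 and 95.2 after 6 h, and 115 and 101 after 24 h. UACC62R held 14.5 and 16, then 14.0 and 15.3, 17.9 and 18.5, and 25.9 and 26.0. The ranges of the lines did not meet at any time. At 0 h UACC62R stood at -2.67 ± 0.10 against UACC62P, 6.37-fold lower. Within UACC62R, SESN3 rose by 0.76 ± 0.10 at 24 h, or 1.70-fold, and by 0.51 ± 0.10 from 6 to 24 h, while UACC62P changed by 0.15 ± 0.09 at 24 h. Even so the highest UACC62R library, 26.0 CPM, was below the lowest UACC62P library, 90.4 CPM. With all 16 libraries the calls of SESN3 in UACC62R at 24 h, against 0 h and against 6 h, were lost.

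IRS2 (ENSG00000185950), the adaptor that carries the insulin and IGF1 receptor signal to PI3K, stood at 53.0 and 53.0 CPM in UACC62P before treatment, 49.2 after 2 h, 54.8 and 48.2 after 6 h, and 51.2 and 59.0 after 24 h. UACC62R libraries gave 26.8 and 19.9, then 24.2 and 19.8, 30.8 and 21.7, and 37.8 and 24.6. All UACC62R libraries were below all UACC62P libraries, and at 0 h the difference was -1.18 ± 0.20, 2.27-fold lower. In UACC62R replicate 1 was above replicate 2 at each of the 4 times. The 24 h change there was 0.42 ± 0.20, which was called with the replicate block and not without it, but also with no filter and, at 0.70, without the UACC62R 24 h replicate 2.

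KLF9 (ENSG00000119138), a zinc finger factor induced by glucocorticoids and thyroid hormone, stood at 72.6 and 59.4 CPM in UACC62P before treatment, 66.0 after 2 h, 56.2 and 41.4 after 6 h, and 59.0 and 56.5 after 24 h. The UACC62R levels were 32.2 and 30.9, then 25.8 and 24.7, 19.2 and 17.3, and 23.1 and 19.6. Every treated UACC62R library was below both at 0 h. KLF9 went the other way from PDK4, CREBRF, SESN3 and FOXO1 at 24 h: in UACC62R it fell by 0.79 ± 0.14 on the log2 scale at 6 h and at 24 h differed from 0 h by -0.56 ± 0.14, again called. In UACC62P it differed by -0.44 ± 0.13 at 6 h, not called in the fit without the block but called with it, with no filter and without the UACC62P 6 h replicate 1, and by -0.19 ± 0.13 at 24 h. At 0 h UACC62R was 2.09-fold below UACC62P (-1.07 ± 0.14). In UACC62R the 6 h call of KLF9 was lost with all 16 libraries and without either replicate at 0 or 6 h. Its 24 h call was lost with all 16 libraries, without either 0 h replicate and without the 24 h replicate 2 (-0.45).

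BCL6 (ENSG00000113916), a repressor known for germinal centre B cells that FOXO factors can induce, stood at 36.4 and 29.1 CPM in UACC62P before treatment, 34.7 after 2 h, 32.2 and 29.9 after 6 h, and 31.9 and 29.7 after 24 h. For UACC62R they were 30.7 and 29.6, then 38.7 and 32.1, 38.1 and 32.3, and 42.0 and 31.8. All 6 treated UACC62R libraries were above both at 0 h, by a small margin for those of replicate 2. The 24 h change was 0.29 ± 0.14, called with the block and not without it, but also, at 0.48, without the UACC62R 24 h replicate 2. The lines at 0 h differed by -0.12 ± 0.14.

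PIK3IP1 (ENSG00000100100), a membrane protein that dampens PI3K, was near the limit of detection, so reads are given. UACC62P libraries held 2 and 0 reads before treatment, 4 after 2 h, 3 and 4 after 6 h, and 1 and 6 after 24 h. UACC62R libraries held 11 and 12, then 26 and 9, 34 and 18, and 48 and 38. Over all times this made 196 reads in UACC62R beside 20 in UACC62P, or 7.98 times as many after scaling (95% interval 5.03 to 13.4, counting error only). At 0 h the ratio of 23 to 2 reads was 10.5 (2.58 to 91.5). From 0 to 24 h in UACC62R the ratio of 86 to 23 reads was 3.58 (2.24 to 5.94). PIK3IP1 was called with the block and not without it in the fit of 15 libraries, but also with no filter, with only the groups compared, and without any 1 of 3 other libraries.

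TXNIP (ENSG00000265972), an arrestin-like protein that binds thioredoxin and limits glucose uptake, gave no values. Its one mapped ID held 0 reads in all 16 libraries, and 1885 of the 11496 IDs without a symbol in the name table had reads, so TXNIP transcript may have been counted under another ID. Nothing is said here of its level. Values of FOXO1, FOXO3, CREBRF, IRS2, SESN3, BCL6 and PIK3IP1 have a further limit: each overlaps a gene or pseudogene on the opposite strand, and the strand setting of the counting was not given in the sources used here.

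Per kilobase of exon (mean CPM per kb over a line's libraries), the order in UACC62P was KLF9 at 11.4, SESN3 at 9.45, IRS2 at 6.47, BCL6 at 5.39, FOXO3 at 2.76, FOXO1 at 2.35, PDK4 at 1.61 and CREBRF at 0.855. The ranges of KLF9 and SESN3, of IRS2 and BCL6, and of each neighbouring pair from FOXO3 to CREBRF overlapped. In UACC62R the order was BCL6 at 5.79, KLF9 at 4.66, IRS2 at 3.16, PDK4 at 2.80, FOXO1 at 2.68, FOXO3 at 2.11, SESN3 at 1.75 and CREBRF at 1.05, and every pair of neighbours overlapped. SESN3 was second of the 8 in UACC62P and seventh in UACC62R. PIK3IP1 was last in both, at 0.0268 and 0.208.

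In UACC62R at 24 h, 5 of the 9 genes were called against 0 h (FOXO1, PDK4, CREBRF and SESN3 higher, KLF9 lower), where 14.7% of all genes tested were called. With the replicate number as a block 8 were called (24.2% of all genes), IRS2, BCL6 and PIK3IP1 in addition. With all 16 libraries CREBRF alone was called (1.78%). The median change was 0.44 for the 8 genes without PIK3IP1 and 0.01 for all genes. At 6 h PDK4 and KLF9 were called (0.666% of all genes), and from 6 to 24 h PDK4, CREBRF, FOXO1 and SESN3 (12.6%). With all 16 libraries edgeR called 0 at 6 h (0.0258%), with 2 at an unadjusted p under 0.05. From 6 to 24 h PDK4 and CREBRF were still called there (0.816%).

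Single libraries weighed on these counts. The share of all genes called was not worked out for fits with 1 library left out. Counts from such fits, here and below, thus have no background beside them. Against 0 h, 2 genes were called at 24 h in UACC62R without the 0 h replicate 1, 3 without the 0 h replicate 2 and 3 without the 24 h replicate 1, and CREBRF and SESN3 were called in each of these. At 6 h, 1 gene was called without the 0 h replicate 1, and 0 without the 0 h replicate 2 or without either 6 h replicate.

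**Figure D2:**
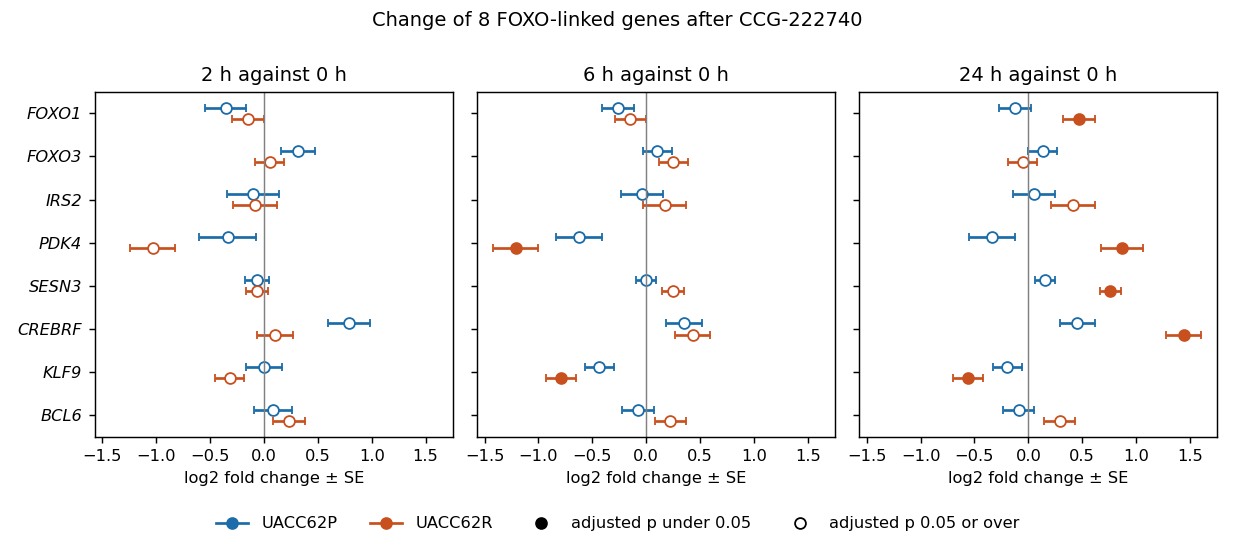
Log2 fold change against 0 h (horizontal axis, bars are SE) of 8 genes (vertical axis) at 2, 6 and 24 h in UACC62P (blue) and UACC62R (red), from the 15-library edgeR fit; filled points have an adjusted p under 0.05. At 24 h CREBRF, PDK4, SESN3 and FOXO1 lie to the right and KLF9 to the left in UACC62R, with UACC62P points nearer 0 for each of the 5.

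No gene of the 9 was called at 2 h in UACC62R (0.074% of all genes), with 2 at an unadjusted p under 0.05 in edgeR. The block called PDK4 (0.365% of all genes) and DESeq2 called PDK4 too (0.182%). In UACC62P edgeR called none at 2 h (0.0444%), 6 h (1.52%), 24 h (3.85%) or from 6 to 24 h (0.735%), with 1, 2, 1 and 0 at an unadjusted p under 0.05, and DESeq2 also called 0 at each (0.069, 3.27, 6.36 and 2.09% of all genes). The block called KLF9 in UACC62P at 6 h (6.98%). Whether the response differed between the lines was tested as such. At 24 h UACC62R minus UACC62P was 1.21 ± 0.29 for PDK4, 0.99 ± 0.23 for CREBRF, 0.61 ± 0.14 for SESN3 and 0.60 ± 0.21 for FOXO1. None of the 9 passed in the filtered, TMM-scaled edgeR fit without the block (0.562% of all genes), with 4 at an unadjusted p under 0.05. PDK4, CREBRF and SESN3 passed with the replicate block (4.05% of all genes). The same 3 genes passed with DESeq2 (1.97%) and in edgeR with no filter on low counts (574 of 35573 genes). With all 16 libraries 0 of the 9 passed, and 0 of all 19352 genes tested. At 6 h 0 of the 9 passed in edgeR (0.00493% of all genes), at an adjusted or an unadjusted p under 0.05, and 0 in DESeq2 (0.118%).

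Between the lines at 0 h, 6 of the 9 were called, where 53.9% of all genes were. SESN3, IRS2, KLF9 and FOXO3 were lower in UACC62R, and PDK4 and PIK3IP1 were higher. Line and vemurafenib cannot be told apart in these values. With all 16 libraries 4 were called (40.5% of all genes), SESN3, IRS2, KLF9 and PIK3IP1. Without the UACC62P 0 h replicate 2, 3 were called, SESN3, IRS2 and KLF9. The 6 h and 24 h comparisons of a line share its 0 h libraries, so their values for a gene are not independent of each other.

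**Figure D3:**
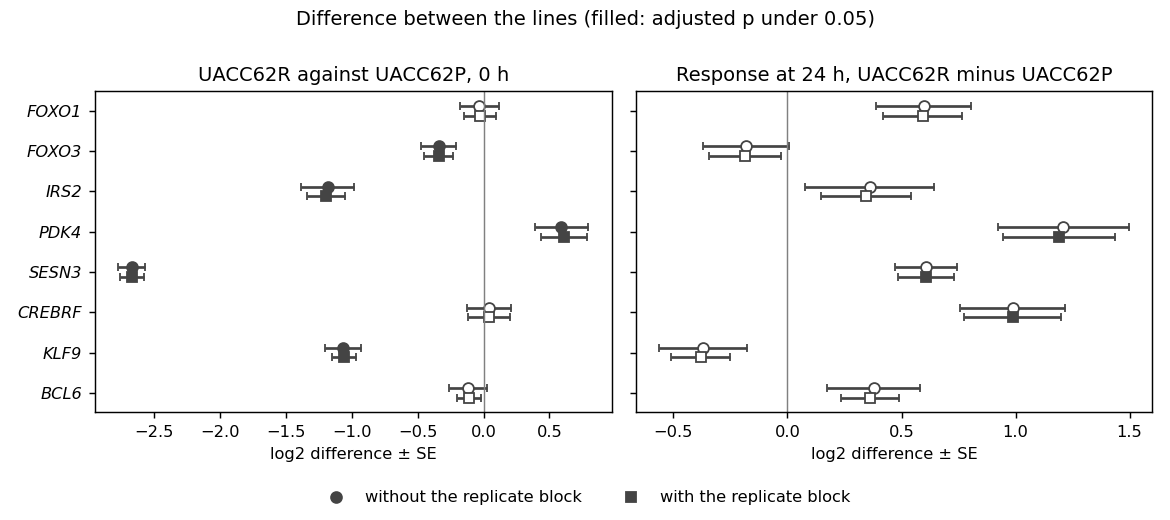
Log2 differences (horizontal axis, bars are SE) of the genes (vertical axis): UACC62R against UACC62P at 0 h (left) and the 24 h response of UACC62R minus that of UACC62P (right), with and without the replicate number as a block. SESN3, IRS2 and KLF9 lie to the left of 0 at 0 h, and PDK4, CREBRF, SESN3 and FOXO1 to the right for the 24 h response.

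The 9 genes had near neighbours in expression over the 15 libraries, measured by Pearson's r of log2 CPM after each line's mean was subtracted, among 10525 genes and given with no test since all points share libraries. SESN3 was most like RETSAT (0.957) and EPB41 (0.950), KLF9 like PKNOX2 (0.948) and LIG3 (0.923), and CREBRF like ATOSA (0.943) and MGST2 (0.934). FOXO1 was most like LRRC1 (0.934) and LONRF2 (0.919), PDK4 like INTS3 (0.931) and NHSL1 (0.930), and IRS2 like DNMT3A (0.918) and PLAAT3 (0.912). BCL6 was most like CITED2 (0.917), PIK3IP1 like MAP1LC3B (0.892) and CPT2 (0.866), and FOXO3 like TTC7B (0.866) and ADM (0.854). The genes named were picked as the highest of the 10525. The replicate number was not removed, and same-numbered libraries of different groups deviated together, so r can reflect replicate as well as time. The value r takes no account of the size of a change. At 24 h in UACC62R INTS3 changed by 0.12 and NHSL1 by 0.14 beside 0.87 for PDK4, but RETSAT by 1.00 beside 0.76 for SESN3. Among the 9 themselves the closest pairs were FOXO1 with PDK4 (0.865) and CREBRF with SESN3 (0.821). CITED2, MAP1LC3B and CPT2 are also in the pathway lists described next.

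Other genes of the pathway came from 10 lists of 123 genes, of which 113 were tested. In UACC62R at 24 h, 20 rose and 6 fell, or 23.0%, beside 14.7% of all genes, with a median change of 0.09 against 0.01. With the replicate block 37 rose and 13 fell, with all 16 libraries 2 genes were called, and without the UACC62R 0 h replicate 2 there were 11.

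Among FOXO factors and their regulators in UACC62R at 24 h, 2 of 15 rose and 1 fell (median -0.09). FOXO4, the third FOXO factor tested, rose by 0.75 ± 0.14 (adjusted p = 0.00268), from 11.2 ± 1.07 to 18.9 ± 2.14 CPM (SD, n = 2). SGK3, a kinase that can phosphorylate FOXO factors, rose by 0.66 ± 0.18 (adjusted p = 0.025), and MAPK8, the stress kinase JNK1, fell by 0.42 ± 0.11 (adjusted p = 0.0204). In insulin receptor and PI3K signalling 2 of 15 rose (median 0.06). These were INSR, the insulin receptor, at 0.51 ± 0.15 (adjusted p = 0.0363), and PIK3R1, the regulatory subunit of PI3K, at 0.33 ± 0.10 (adjusted p = 0.0371).

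Of other known FOXO targets, 5 of 20 rose in UACC62R at 24 h and 1 fell (median 0.32). CCNG2, an unusual cyclin tied to cell cycle exit, rose by 0.89 ± 0.18 (adjusted p = 0.00506), and RBL2, a pocket protein of quiescent cells, by 0.33 ± 0.07 (adjusted p = 0.00753). ERBB3, a receptor that FOXO factors can induce when PI3K is blocked, rose by 1.01 ± 0.16 (adjusted p = 0.00105) but from 1.13 ± 0.04 to only 2.27 ± 0.33 CPM (SD, n = 2). GADD45A, a DNA damage and stress gene, fell by 0.43 ± 0.10 (adjusted p = 0.0129). In the glucose sensing and thioredoxin list 2 of 12 rose (median -0.03), ARRDC3, an arrestin relative of TXNIP, by 0.84 ± 0.12 (adjusted p = 0.000397) and HK2, a hexokinase, by 0.59 ± 0.14 (adjusted p = 0.011).

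Around PDK4's own step, pyruvate dehydrogenase and fatty acid use, 3 of 15 rose in UACC62R at 24 h and 2 fell (median 0.12). PDP1, the phosphatase that undoes what PDK4 does, fell by 0.64 ± 0.11 (adjusted p = 0.00183), and DLAT, a core subunit of the complex, fell by 0.32 ± 0.07 (adjusted p = 0.00752). CPT2, which finishes fatty acid entry into mitochondria, rose by 0.49 ± 0.10 (adjusted p = 0.00555), and MPC1, a subunit of the pyruvate carrier, by 0.50 ± 0.12 (adjusted p = 0.0129).

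In the CREB3 family, which CREBRF regulates, 2 of 4 rose and 1 fell (median 0.45). CREB3L2 rose by 0.61 ± 0.08 (adjusted p = 0.000243) and CREB3L4 by 0.74 ± 0.15 (adjusted p = 0.00424), while CREB3L1 fell by 0.59 ± 0.14 (adjusted p = 0.0125). Of quiescence genes 3 of 10 rose (median 0.11): YPEL3, a growth suppressor, by 1.24 ± 0.19 (adjusted p = 0.000745), YPEL5 by 0.52 ± 0.12 (adjusted p = 0.00785) and TOB1, an antiproliferative factor, by 0.37 ± 0.11 (adjusted p = 0.0351). Among 7 glucocorticoid-responsive genes (median 0.28), FKBP5, a receptor cochaperone, fell by 0.61 ± 0.08 (adjusted p = 0.000245). KLF15 was called higher but held 3 reads at 0 h and 18 at 24 h, a ratio of 5.74 (95% interval 1.68 to 30.4, counting error only). In mTORC1 sensing 0 of 10 (median 0.12) and in BCL6 corepressors and targets 0 of 5 (median -0.03) were called by edgeR.

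**Figure D4:**
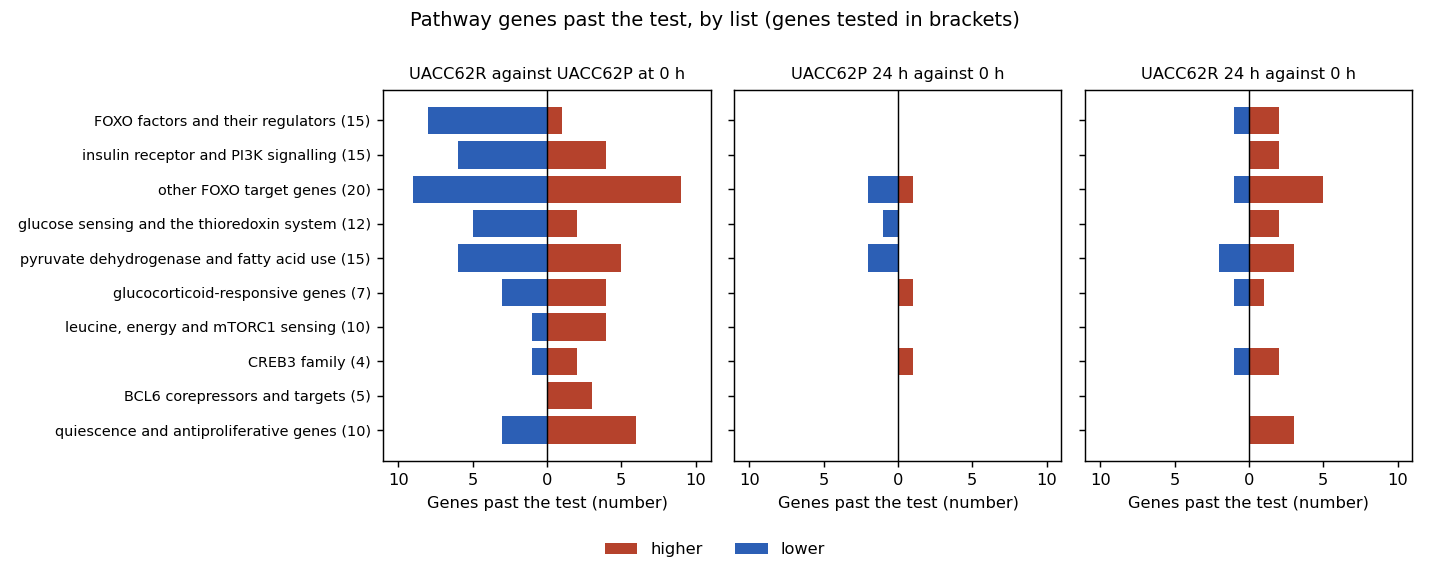
Number of genes (horizontal axis) past an adjusted p of 0.05 in each of 10 pathway lists (vertical axis), higher to the right and lower to the left, for 24 h against 0 h in each line and for UACC62R against UACC62P at 0 h. The line difference called 40 higher and 42 lower of 113, UACC62R at 24 h 20 and 6, and UACC62P at 24 h 3 and 5.

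In UACC62P at 24 h, 3 of the 113 rose and 5 fell (7.08%, beside 3.85% of all genes, median 0.05 against 0.00), or 15 and 12 with the replicate block (12.1% of all genes), and 0 were called without the UACC62P 24 h replicate 1. CREB3L2 rose here too, by 0.48 ± 0.08 (adjusted p = 0.00418), as did ERBB3 by 0.37 ± 0.08 (adjusted p = 0.0185) and PER1, a clock gene that glucocorticoids induce, by 0.99 ± 0.23 (adjusted p = 0.0271). PDP1 fell by 0.52 ± 0.12 (adjusted p = 0.0258) and PDHA1, the catalytic subunit that PDK4 phosphorylates, fell by 0.30 ± 0.07 (adjusted p = 0.0357). PPARGC1A, the mitochondrial coactivator, fell by 1.04 ± 0.25 (adjusted p = 0.0321), TRIM63, a muscle ubiquitin ligase, fell by 1.39 ± 0.32 (adjusted p = 0.0258), and TXN2, mitochondrial thioredoxin, fell by 0.28 ± 0.07 (adjusted p = 0.0495). So CREB3L2 and ERBB3 rose and PDP1 fell in both lines at 24 h.

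PER1 was the one listed gene called at 2 h without the block, in both lines: 1.72 ± 0.26 in UACC62P (adjusted p = 0.0308), whose 2 h group is 1 library, and 1.24 ± 0.20 in UACC62R (adjusted p = 0.0297). In UACC62P it was still up by 1.56 ± 0.22 at 6 h (adjusted p = 0.00267), where PPARGC1A fell by 1.14 ± 0.25 (adjusted p = 0.0352) and ERBB3 rose by 0.34 ± 0.08 (adjusted p = 0.0459). With the block 2 listed genes were called at 2 h in each line (0.148% of all genes in UACC62P) and 16 at 6 h in UACC62P. In UACC62R 0 of 113 were called at 6 h by edgeR, with 20 at an unadjusted p under 0.05. DESeq2 called 3 and the block 9 (2.79% of all genes). For 24 against 6 h in UACC62P edgeR and DESeq2 both called 0, with 14 at an unadjusted p under 0.05 in edgeR, and the block called 7 (5.05% of all genes). In UACC62R 9 rose and 7 fell from 6 to 24 h (14.2%, beside 12.6% of all genes), or 39 in all with the replicate block (22.1% of all genes), with FOXO4 up by 0.72 ± 0.14 (adjusted p = 0.00477), PIK3R3 up by 0.55 ± 0.11 (adjusted p = 0.00504), YPEL3 up by 1.17 ± 0.19 (adjusted p = 0.00162) and FKBP5 at -0.69 ± 0.08 (adjusted p = 0.000169). The difference of response called 0 of 113 in edgeR and in DESeq2 at 6 and at 24 h, with 9 and 21 at an unadjusted p under 0.05 in edgeR. With the block it called 1 at 6 h (0.212% of all genes) and 6 at 24 h.

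At 0 h 40 listed genes were called higher and 42 lower in UACC62R, or 72.6%, beside 53.9% of all genes (median -0.02 against 0.02). Of the kinases that phosphorylate FOXO factors, AKT1 was lower at 163 ± 3.97 CPM against 406 ± 8.20 in UACC62P (SD, n = 2, log2 -1.32 ± 0.07, adjusted p = 5.42e-10), AKT2 was at -0.83 ± 0.09 (adjusted p = 2.55e-06), SGK1 at -1.88 ± 0.07 (adjusted p = 2.97e-11) and SGK3 at -3.47 ± 0.16 (adjusted p = 2.65e-10). IRS1, the other main insulin receptor adaptor, went the opposite way from IRS2, at 200 ± 12.3 against 65.6 ± 10.8 CPM (1.60 ± 0.14, adjusted p = 2.47e-07). PIK3R1 was higher by 0.61 ± 0.10 (adjusted p = 0.000111), and the phosphatases INPP4B and PHLPP1, which oppose PI3K and AKT, were at -0.97 ± 0.12 (adjusted p = 1.18e-05) and -1.003 ± 0.11 (adjusted p = 3.43e-06).

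FOXO targets split evenly at 0 h, 9 higher and 9 lower of 20. The muscle ubiquitin ligases diverged: FBXO32 was at 193 ± 14.3 CPM in UACC62R against 27.1 ± 2.16 (2.83 ± 0.12, adjusted p = 1.28e-10), whereas TRIM63 held 1 read in UACC62R and 711 in UACC62P. GABARAPL1, an autophagy gene, was higher by 1.29 ± 0.10 (adjusted p = 7.02e-08), and ERBB3 stood at 1.13 ± 0.04 against 377 ± 14.2 CPM (adjusted p = 5.96e-15). In fuel choice CPT1A, the gate of fatty acid oxidation, was higher by 1.70 ± 0.14 (adjusted p = 1.40e-07), and PDHA1, DLAT and MPC1 were at -0.80 ± 0.07 (adjusted p = 3.84e-07), -0.72 ± 0.07 (adjusted p = 8.52e-07) and -1.43 ± 0.12 (adjusted p = 1.41e-07). HK2 was at -1.20 ± 0.14 (adjusted p = 4.89e-06) and TXNRD1, thioredoxin reductase, at 1.06 ± 0.14 (adjusted p = 1.90e-05).

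All 7 glucocorticoid-responsive genes tested were called at 0 h, 4 higher and 3 lower. NR3C1, the glucocorticoid receptor, stood at 172 ± 13.4 CPM in UACC62R against 44.3 ± 0.39 in UACC62P (1.96 ± 0.08, adjusted p = 5.08e-11), while KLF15, a KLF9 relative, held 3 reads in UACC62R and 726 in UACC62P. CREB3L1 stood at 25.8 ± 1.17 against 0.211 ± 0.04 CPM (adjusted p = 1.75e-11) and CREB3 was higher by 1.10 ± 0.10 (adjusted p = 5.45e-07), with CREB3L2 at -0.55 ± 0.08 (adjusted p = 4.85e-05). Of the nutrient sensing genes, ULK1, which starts autophagy, was higher by 1.12 ± 0.12 (adjusted p = 2.28e-06), and EIF4EBP1, an mTORC1 substrate, was at -1.14 ± 0.13 (adjusted p = 3.28e-06). NCOR1, a BCL6 corepressor, was higher by 0.54 ± 0.09 (adjusted p = 0.000113), and BCL6 itself was not called. The melanocyte-lineage markers differed between the lines as given above, and their part in these differences was not tested.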

How the data were processed

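RNA of 16 libraries was read as single 50 bp reads from stranded mRNA libraries, per the labels' protocols. The authors deposited raw read counts per Ensembl gene, 1 table per library, with 5 summary lines that were left out. The submitters' processing notes name HISAT2 2.1.0 and HTSeq 0.6.1 with hg19, beside Trimmomatic 0.33, FastQC 0.11.5 and bcl2fastq 2.19.0. Unaligned reads made up 6.12 to 17.8%, and reads placed more than once 18.6 to 22.0%. A name table gave symbols for 52181 of the 63677 IDs.

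The counts were fitted in edgeR 4.0.16 (limma 3.58.1, R 4.3.3): TMM scaling, filterByExpr, 1 coefficient per group, 15 libraries, quasi-likelihood F test, 7 residual degrees of freedom, 11 comparisons, 20280 genes. The fit leaves out the library labelled UACC62P 2 h replicate 1 and pools the spread, so UACC62P at 2 h, with 1 library, is assumed to vary like the other groups. SEs were derived from F as log2 change over its square root. Same-numbered libraries of different groups deviated together in 21 of 21 pairs (r 0.174 to 0.718 over 8273 genes), so the replicate number was used as a block in a second fit with 6 residual degrees of freedom. The pairing comes from the data and from the numbers in the labels, which state no shared day. DESeq2 1.42.0, other scaling, no filter, all 16 libraries and leaving out each library were alternatives. Of the listed pathway genes, those named had the smallest p of a list, up to 4 for 24 h and the lines at 0 h and up to 2 otherwise, and a mean log2 CPM not under 0. Some genes that these rules named are not reported here. The members, lists and named genes were chosen with earlier results of these data known. Lengths are exon unions of GENCODE gene models, and promoter sequences come from RefSeq on GRCh38.p14, which matched all 10 genes. The fit was tested on simulated data.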

Additional observations from a re-analysis of the deposited data

Results flagged for a closer look

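When the replicate number entered as a block, the 24 h response of UACC62R minus that of UACC62P passed an adjusted p of 0.05 in edgeR for PDK4 at 1.19, CREBRF at 0.987 and SESN3 at 0.608 on the log2 scale, which is why they are listed. Without the block none of the 3 passed in the filtered, TMM-scaled edgeR fit, and none with all 16 libraries. All 3 passed in DESeq2 (1.97% of all genes) and in edgeR with no filter (574 of 35573 genes). SESN3 passed with library size alone (127 of 20280 genes). For this difference the block called 4.05% of all genes and the fit without it 0.562%. Each was higher in both UACC62R libraries at 24 h than in both at 0 h, where UACC62P gave a difference of -0.34 for PDK4, 0.46 for CREBRF and 0.15 for SESN3. The 3 genes were picked with these values known.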

How the results depend on the processing

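Of the 17 called values of the members, recomputed under the alternatives, 374 of 374 kept their direction and 324 kept their call. Of the 50 lost calls, 10 were lost with all 16 libraries, 34 with 1 library left out and 6 otherwise; 0 reversed. Counts that moved follow, of the 9 tested genes and of the 113 listed pathway genes, and the cause was not tested.

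With the replicate block, which rests on the pairing of the numbers, the 9 genes gave 1 call in UACC62P at 6 h, 1 in UACC62R at 2 h, 8 in UACC62R at 24 h and 3 for the difference at 24 h. The listed genes gave 2 in UACC62P at 2 h, 16 at 6 h, 27 at 24 h and 7 from 6 to 24 h, then 2, 9, 50 and 39 for the same in UACC62R, and 1 and 6 for the differences at 6 and 24 h. With all 16 libraries the 9 genes gave 0 in UACC62R at 6 h, 1 at 24 h and 2 from 6 to 24 h, and the listed genes 0 in UACC62P at 2, 6 and 24 h, 0 in UACC62R at 2 h, 2 at 24 h and 0 from 6 to 24 h.

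With no filter the 9 genes gave 1 and 2 in UACC62P at 2 and 6 h. They gave 1 in UACC62R at 2 h and 3 for the difference at 24 h. The listed genes gave 4, 17, 17 and 2 in UACC62P at 2, 6 and 24 h and from 6 to 24 h. They gave 3 and 11 in UACC62R at 2 and 6 h, and 1 and 5 for the differences. In the same order, all 35573 genes gave 117, 889, 1518 and 722, then 123 and 451, and 98 and 574. The filtered fit of 20280 genes gave 9, 308, 780 and 149, then 15 and 135, and 1 and 114. With only the groups compared, the listed genes gave 2, 6, 15 and 1 in UACC62P at 2, 6 and 24 h and from 6 to 24 h. In UACC62R they gave 0, 11 and 7 at 2 and 24 h and from 6 to 24 h. All genes gave 64, 281, 1228 and 375 there in UACC62P, and 15, 1600 and 1048 in UACC62R, of 16236 to 17769 tested. DESeq2 gave 1 of the 9 in UACC62R at 2 h (37 of all 20280 genes) and 3 for the difference at 24 h (399 of all). It gave 8 and 3 listed genes at 6 h in UACC62P (664 of all) and UACC62R (285 of all). Library size alone gave 1 of the 9 for the difference at 24 h (127 of all 20280 genes). It gave 6 listed genes in UACC62P at 6 h (323 of all). It moved the median of all genes between the lines at 0 h from 0.0216 to 0.102.

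Leaving out 1 library at a time, the 9 genes ranged from 0 to 1 in UACC62P at 6 h, and in UACC62R from 0 to 2 at 6 h, 2 to 6 at 24 h and 3 to 4 from 6 to 24 h, and from 3 to 6 between the lines at 0 h. The listed genes ranged from 0 to 1, 1 to 6 and 0 to 9 in UACC62P at 2, 6 and 24 h, in UACC62R from 0 to 1 at 2 h, 0 to 1 at 6 h, 11 to 29 at 24 h and 5 to 17 from 6 to 24 h, and from 75 to 83 between the lines. Shares of all genes called were not worked out for these fits. Without UACC62P 2 h replicate 2, the 2 h comparison of that line gave no value. With 2 libraries per group, small changes could go uncalled, and depth limits PIK3IP1, KLF15 and TRIM63, which held few reads in at least 1 line.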
